A study of Mus musculus with 16 samples.

Results

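The genes described here encode the nuclear subunits of the mitochondrial respiratory chain and ATP synthase, with a few assembly factors of complex I that share a name stem. Members were the genes whose symbol begins with Nduf, Uqcr, Atp5 or Cox4 to Cox8, together with Sdha, Sdhb, Sdhc, Sdhd, Cyc1 and Cycs, as long as a probe set named that gene alone and the gene was no pseudogene. This gave 78 genes of the 13674 genes that had such a probe set on the chips. Each gene was represented by 1 probe set, on chip A where there was a choice (73 genes) and otherwise on chip B (5 genes).

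The cells were mouse endothelial cell lines grown from embryonic stem cells in which Cdh5, the gene for the endothelial junction protein VE-cadherin (VEC), carried a homozygous null mutation. Cells labelled VEC null and cells labelled VEC positive were each taken sparse and confluent, after 36 h in MCDB 131 medium with 1% BSA and no other supplement named, which all 4 conditions shared. How the VEC-positive cells came to carry VEC, how many clones there were and the age of the cultures were not stated in the labels. Each condition was 1 cRNA sample made from 15 µg of total RNA and hybridised to 2 copies of each of a pair of Affymetrix chips, which makes 16 arrays, and the stated aim was to find genes that VEC induces once it clusters at junctions.

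The respiratory chain sits in the inner mitochondrial membrane. Complex I takes electrons from NADH and complex II takes them from succinate. They pass through ubiquinone to complex III, through cytochrome c to complex IV and then to oxygen, and the proton gradient built on the way drives ATP synthase, complex V. Most subunits are encoded in the nucleus, and a minority of them carry the redox centres or the catalytic sites while the supernumerary subunits surround that core. Endothelial cells are known for drawing much of their ATP from glycolysis, and their mitochondria are also studied as sources of biosynthetic precursors and signals.

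Values are MAS5 signals, a linear hybridisation intensity that the authors scaled to 500 per array, and differences are on a log2 scale of the signal plus 50 with their standard error (SE). A member was called where its adjusted p from limma lay below 0.05 over all tested probe sets. The 2 copies of a condition share a cRNA sample, so every p measures the spread between hybridisations and does not cover differences between cultures. In each comparison of 2 conditions, 32.5% to 38% of all tested probe sets were higher without overlap of the copies. Another 35.5% to 37.3% were lower, so a lack of overlap in a single gene was common. In RNA from whole cultures, fewer cells that express a gene and less RNA per cell cannot be told apart.

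The targeted gene, Cdh5, did not separate the lines. Its probe set gave signals of 1255 and 1282 on sparse VEC-null arrays, 2707 and 2509 on confluent VEC-null arrays, 1464 and 1334 on sparse VEC-positive arrays and 2607 and 2526 on confluent VEC-positive arrays. Whether that probe set lies inside the deleted part was not stated in the labels, so it does not check the labels, and VEC null and VEC positive below are the labels' names. All 13 measured endothelial markers of 14 listed were above the level filter in at least 1 condition, with Eng and Emcn high throughout and Vwf at a mean signal of 42.1 in sparse VEC-positive cells against 2516 in confluent ones. Their summed signal ran from 14247 to 14317 in sparse VEC-null, 56062 to 56340 in confluent VEC-null, 22618 to 25814 in sparse VEC-positive and 55001 to 55987 in confluent VEC-positive cells. Among these markers Cldn5 had a mean signal of 5115 in confluent VEC-positive cells, against 11.9 to 50.5 in the other conditions. Marker lists of other cell types were mostly low (stem cell 1 of 8 above the level, muscle 4 of 15, fat 3 of 6, blood 1 of 7, fibroblast and smooth muscle 3 of 7, epithelial 2 of 6). The epithelial sum was 1279 to 1457 in sparse VEC-positive cells against 425.7 to 703.9 in the other 3 conditions, through the keratin Krt19 (mean signal 904.7 against at most 5.6). The blood sum was 1029 to 1393 in confluent VEC-null cells against 522.4 to 656.1 in the other 3 conditions, with Cd68 at a mean of 910.0 against at most 352.9. Of the 3 tested fibroblast and smooth muscle genes, 1 was higher and 2 lower in confluent VEC-positive than confluent VEC-null cells (log2 -2.65 to 1.18). Of all tested probe sets 16.2% were higher and 16.8% lower there. The part of these marker differences in the results below was not tested. Signals of 2 copies correlated at r from 0.945 to 0.987 across probe sets, which describes the arrays and not the cells.

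Respiratory chain genes were highest in sparse VEC-positive cells and lowest in confluent VEC-positive cells. Of the 65 members that passed the level filter, 38 (58.5%) had their highest mean in sparse VEC-positive cells, against 22.6% of all 14246 tested probe sets. Their lowest mean was in confluent VEC-positive cells for 33 (50.8%), against 27.4% of all tested probe sets. In the VEC-null line, 11 members were highest when sparse and 11 when confluent. The other 13 members had no condition whose mean log2 value lay above the median of their chip, with signals from 3.4 to 257.7 on single arrays, and were not tested: Ndufa1, Ndufa12, Ndufc2, Ndufs4, Ndufaf2, Ndufaf5, Cox5a, Cox6a2, Cox6b1, Cox7a1, Cox8a, Atp5j2 and Atp5k. A dim signal of a probe set says little about the transcript, since ubiquitous subunits such as Cox5a and Cox8a are among them. A further 60 members were above the level in all 4 conditions, and 5 in fewer (Atp5e, Atp5g1, Atp5pb, Cox4i1 and Cox6b2), so a call for those 5 leans on the condition in which they were high.

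**Figure D1:**
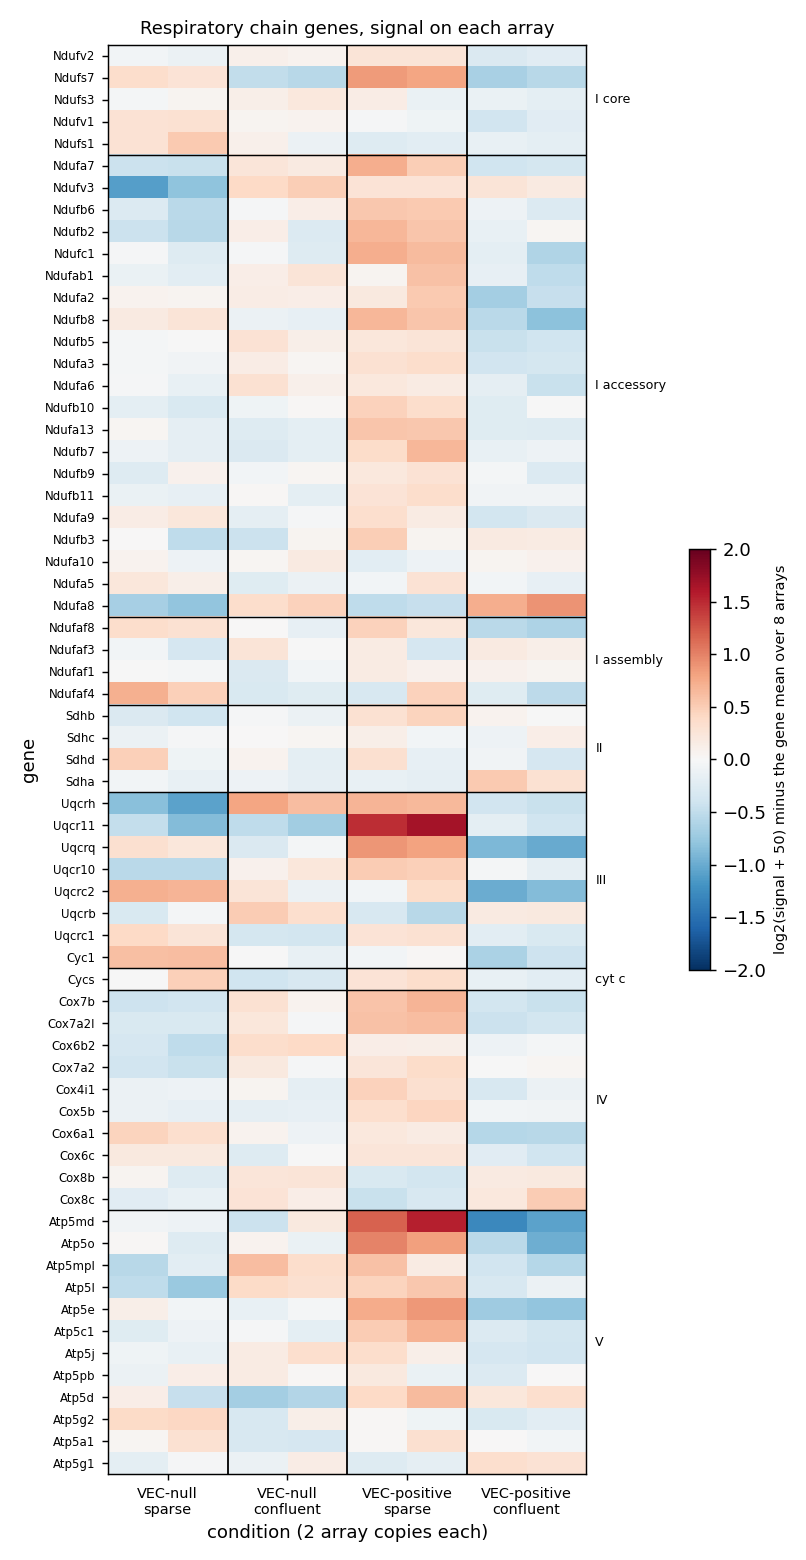
The colour map shows log2(signal + 50) of the 65 tested respiratory chain genes (rows, grouped by complex) on the 2 array copies of each of the 4 conditions (columns), minus the gene's mean over its 8 arrays. The sparse VEC-positive columns are mostly red, with 38 genes at their highest mean there, and the confluent VEC-positive columns mostly blue.

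With density, respiratory chain transcripts fell in the VEC-positive line and moved both ways in the VEC-null line. Between confluent and sparse VEC-positive cells, 43 of 65 members (66.2%) were lower when confluent, where 23.1% of all tested probe sets were lower, and 6 (9.23%) were higher, where 24.6% of all were higher. The median difference of the members was -0.53 on the log2 scale, beside 0.02 over all tested probe sets. Between confluent and sparse VEC-null cells, 18 members (27.7%) were higher and 18 (27.7%) lower, close to the 23.2% and 23.5% of all probe sets, and the median was 0.08, which turned to -0.07 when arrays were centred on their median, with 11 higher calls in place of 18. The 18 lower calls were fewer with a copy left out: 9 without sparse VEC-null copy 1, without sparse copy 2 or without confluent copy 1, and 11 without confluent copy 2.

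The test of the difference between these density responses called 36 members (55.4%) as more negative in the VEC-positive line, where 14.1% of all tested probe sets were, and 2 (3.08%) as more positive, where 14.6% were. The members' median difference of responses was -0.54 on the log2 scale beside 0.01 over all. By sign alone, 32 members fell in the VEC-positive and rose in the VEC-null line, 24 fell in both, 7 rose in both and 2 rose in the VEC-positive line alone. For 13 of the 32, each line's own change passed the test. The 2 more positive members were Sdha and Ndufs1, and that count was 0 or 1 whenever any 1 copy was left out (0 without sparse VEC-null copy 2, confluent VEC-null copy 2, either sparse VEC-positive copy or confluent VEC-positive copy 1, and 1 without each of the other 3).

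**Figure D2:**
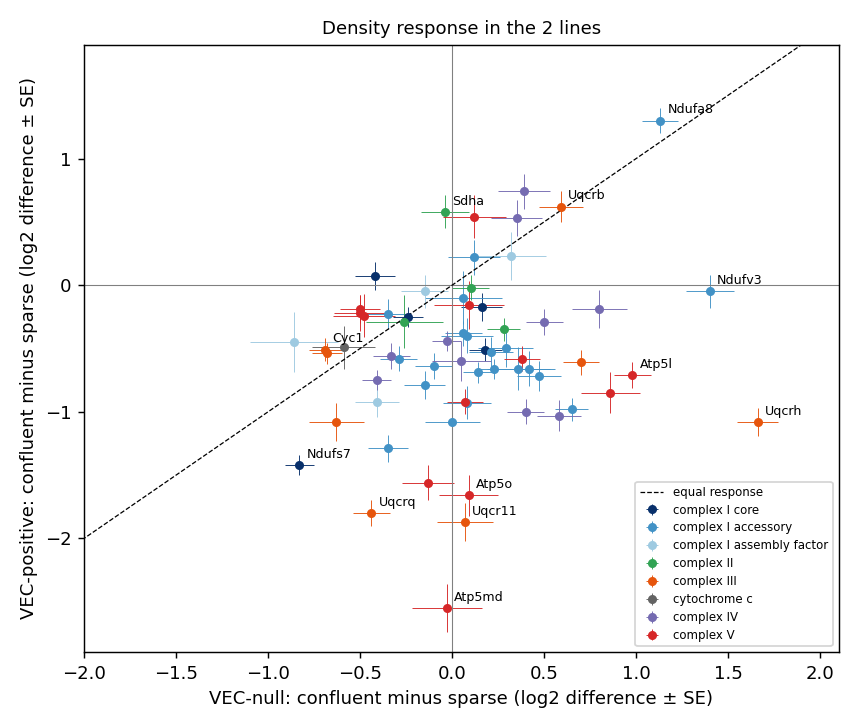
Each point is 1 tested respiratory chain gene, with its confluent minus sparse log2 difference in VEC-null cells on the horizontal axis and in VEC-positive cells on the vertical axis, coloured by complex, with bars of 1 SE. The dashed line marks equal responses, and 48 of the 65 genes lie below it, Uqcrh, Atp5md and Uqcr11 farthest.

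At equal density the lines differed in opposite directions. In sparse cells, 34 members (52.3%) were higher in the VEC-positive line, where 18.3% of all probe sets were, and 5 (7.69%) lower, where 20.6% were, with a median of 0.35. The 5 lower were Atp5g2, Cyc1, Ndufs1, Ndufv1 and Uqcrc2, and 3 passed without sparse VEC-null copy 1, without sparse VEC-null copy 2 or without sparse VEC-positive copy 1. A further probe set of Cyc1 gave -0.13 in sparse cells and did not pass (adjusted p 0.7). In confluent cells, 25 members (38.5%) were lower in the VEC-positive line, where 16.8% of all were, and 3 (4.62%: Atp5d, Ndufa8 and Sdha) higher, where 16.2% were, with a median of -0.21. These comparisons share arrays with the density comparisons, so the counts are not independent of each other. With the 4 averaged cRNA samples as units and additive terms for line and density, limma called 0 members between the lines (2 higher and 1 lower at an unadjusted p below 0.05) and 2 with density (1 higher and 1 lower). That fit has 1 residual degree of freedom, and its share of calls over all probe sets is not given. Its counts are thus no result about the members.

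**Figure D3:**
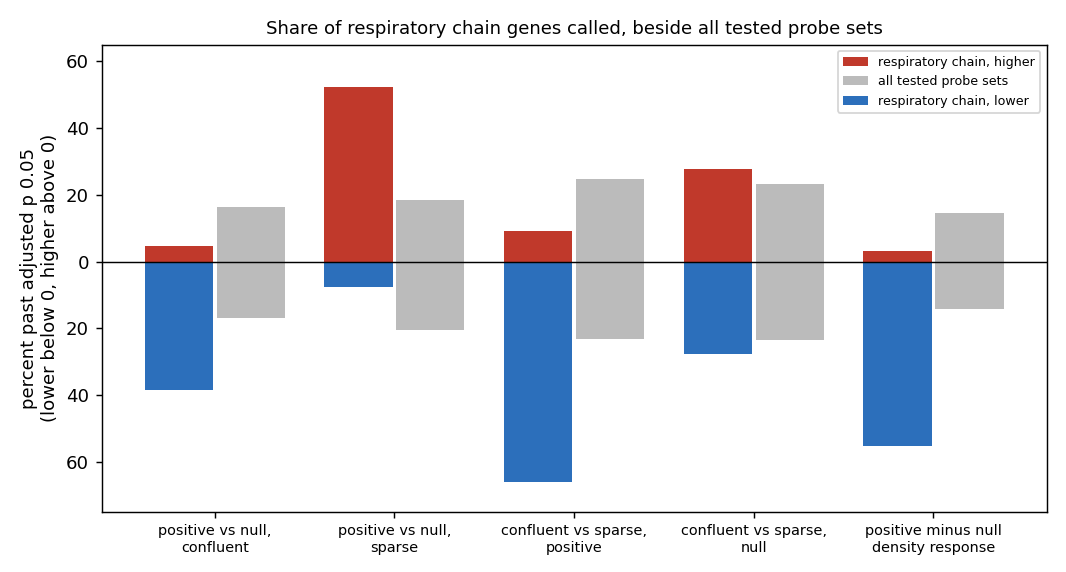
Bars give the percent of the 65 tested respiratory chain genes that were higher (above 0, red) or lower (below 0, blue) at an adjusted p below 0.05 in each comparison, with the same percent over all 14246 tested probe sets in grey. The member share lies far above the grey bar for the higher calls in sparse cells (52.3% against 18.3%), the lower calls with density in VEC-positive cells (66.2% against 23.1%) and the more negative responses (55.4% against 14.1%).

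Fewer members changed by a log2 difference of 1 or more. In the VEC-positive line 12 were that much lower when confluent (18.5%, beside 7.22% of all) and only Ndufa8 was that much higher (1.54%, beside 8.16%). In sparse cells 10 were that much higher in the VEC-positive line (15.4%, beside 5.43%). In confluent cells Atp5md and Uqcrh were that much lower (3.08%, beside 3.62%). In the VEC-null line Ndufa8, Ndufv3 and Uqcrh were that much higher when confluent (4.62%, beside 9.1%). The difference of responses passed at that size for 18 members, all more negative in the VEC-positive line (27.7%, beside 6.34%). In the opposite direction limma called 0 members at that size when confluent lines were compared (higher, beside 4.31% of all), when sparse lines were compared (lower, beside 4.27%), with density in VEC-null cells (lower, beside 7.41%) and for the difference of responses (more positive, beside 5.91%), and an unadjusted p below 0.05 gave 0 there too. An offset of 200 in place of 50, which shrinks differences of dim genes, gave counts of 4 against 10 in sparse cells, 8 against 13 with density in VEC-positive cells and 0 against 2 in confluent cells.

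The stretches in front of 5 members are shown because those genes differ most in how they moved: Uqcrh, Uqcr11 and Atp5md had the most negative differences of response, Sdha the most positive, and Ndufa8 rose most with density in the VEC-positive line. Each is the 250 bases before the gene's start in RefSeq on GRCm38.p6, on the minus strand: chr4:116075071-116075320 for Uqcrh, chr10:80406822-80407071 for Uqcr11, chr19:47090648-47090897 for Atp5md, chr13:74350241-74350490 for Sdha and chr2:36049339-36049588 for Ndufa8. Capitals mark matches, on either strand, to CCGGAAG (the core of GABP and other ETS factors), the NRF-1 letters (GCGCA, any base, GCGC) or GGGCGG (Sp1).
Uqcrh: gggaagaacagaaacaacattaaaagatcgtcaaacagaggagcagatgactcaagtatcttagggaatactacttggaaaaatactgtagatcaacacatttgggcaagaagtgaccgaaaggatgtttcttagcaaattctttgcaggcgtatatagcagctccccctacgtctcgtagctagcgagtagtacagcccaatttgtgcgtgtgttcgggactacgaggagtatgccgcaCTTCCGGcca
Uqcr11: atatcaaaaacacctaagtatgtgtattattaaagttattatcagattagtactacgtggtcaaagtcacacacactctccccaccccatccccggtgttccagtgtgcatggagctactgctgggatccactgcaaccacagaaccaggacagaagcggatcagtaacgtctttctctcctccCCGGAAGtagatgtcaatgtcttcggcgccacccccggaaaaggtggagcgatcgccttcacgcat
Atp5md: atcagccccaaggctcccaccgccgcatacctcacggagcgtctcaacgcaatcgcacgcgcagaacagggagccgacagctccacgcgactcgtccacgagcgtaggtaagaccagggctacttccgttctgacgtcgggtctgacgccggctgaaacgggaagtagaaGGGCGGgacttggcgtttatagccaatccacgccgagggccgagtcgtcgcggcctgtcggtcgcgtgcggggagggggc
Sdha: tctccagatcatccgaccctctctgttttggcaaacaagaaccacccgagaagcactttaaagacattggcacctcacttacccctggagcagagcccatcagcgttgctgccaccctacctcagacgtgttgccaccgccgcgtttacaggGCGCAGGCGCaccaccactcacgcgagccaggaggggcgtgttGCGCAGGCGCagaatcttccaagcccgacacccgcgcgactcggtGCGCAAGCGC
Ndufa8: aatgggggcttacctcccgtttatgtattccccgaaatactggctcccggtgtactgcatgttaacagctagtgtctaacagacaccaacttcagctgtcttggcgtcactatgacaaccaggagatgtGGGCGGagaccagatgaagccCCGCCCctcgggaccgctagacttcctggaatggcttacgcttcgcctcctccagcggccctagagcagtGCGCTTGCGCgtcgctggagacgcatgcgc
The ETS letters began 10 bases before the start in Uqcrh and 66 before it in Uqcr11, and those of Atp5md began 2 bases past the start, outside the stretch shown. Sdha held the NRF-1 letters at 3 places, beginning 98, 55 and 10 bases before the start, and Ndufa8 held them 30 bases before it.

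A RefSeq window of 300 bases (250 before and 50 after the start) was matched for 64 of the 78 members, out of 27025 gene windows. The NRF-1 letters occurred in 12 member windows (18.8%) against 4.78% of all windows, the ETS letters in 16 (25%) against 9.12%, the YY1 letters AAGATGGC in 9 (14.1%) against 2.88%, the Sp1 letters in 32 (50%) against 35.9% and the ERR-alpha letters TCAAGGTCA in 1 (1.56%) against 0.407%. Matches of different motifs may overlap, and a match is a run of letters and not a shown binding site. Among tested members with a window, 3 of the 10 with the NRF-1 letters had a more negative response in the VEC-positive line (median 0.13), against 30 of the 42 without them (median -0.77). For the ETS letters the counts were 10 of 13 (median -0.62) with and 23 of 39 (median -0.64) without. For the YY1 letters they were 5 of 7 (median -0.59) with and 28 of 45 (median -0.64) without. For the Sp1 letters they were 17 of 28 (median -0.63) and 16 of 24 (median -0.67), and for the ERR-alpha letters 0 of 1 (-0.03) and 33 of 51 (median -0.64). Among all tested probe sets 14.1% had a more negative response. These are descriptions of small groups with no test.

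Complex I is the NADH dehydrogenase. Of its 21 tested accessory subunits, 16 fell with density in the VEC-positive line, 1 (Ndufa8) rose and 4 did not pass (median -0.64; 23.1% of all tested probe sets were lower and 24.6% higher), and 13 of 21 were higher in sparse VEC-positive than in sparse VEC-null cells (18.3% of all). In the VEC-null line 6 rose with density and 3 fell, not far from the 23.2% and 23.5% of all probe sets. The difference of responses was more negative for 15 of 21 (14.1% of all), with a median of -0.78, beside 2 of 5 core subunits with a median of -0.33. Of the 4 tested assembly factors 1 passed (Ndufaf8, -0.52), with a median of 0.00.

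Ndufa7 is an accessory subunit of the complex. Its signal was 1836 and 1816 in sparse VEC-null, 2951 and 2830 in confluent VEC-null, 4161 and 3511 in sparse VEC-positive and 1881 and 1936 in confluent VEC-positive cells. The sparse VEC-positive pair stood highest and the sparse VEC-null and confluent VEC-positive pairs lowest, without overlap between the conditions of either line. It rose 1.57-fold with density in VEC-null cells (log2 0.65, SE 0.09, adjusted p 0.00033) and fell 1.98-fold in VEC-positive cells (log2 -0.98, SE 0.09, adjusted p 2.2e-05), and the responses differed by -1.63 (SE 0.13, adjusted p 5.2e-05).

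Ndufv3, a small accessory subunit near the NADH-binding site, was low in 1 condition only. The signals were 163.2 and 212.0 in sparse VEC-null, 553.8 and 591.3 in confluent VEC-null, 501.7 and 502.3 in sparse VEC-positive and 497.0 and 467.8 in confluent VEC-positive cells. The sparse VEC-null arrays stood apart below the other 6. Ndufv3 rose 2.63-fold with density in VEC-null cells (adjusted p 2.1e-05), while the VEC-positive difference was -0.05 (SE 0.13, adjusted p 0.77), and the responses differed by -1.45 (adjusted p 0.00055).

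Ndufb2, Ndufb8 and Ndufc1 belong to the membrane arm. Ndufb2 gave 869.1 and 795.0, 1308 and 976.0, 1918 and 1760, and 1066 and 1220 in sparse VEC-null, confluent VEC-null, sparse VEC-positive and confluent VEC-positive cells. It was 2.14-fold higher in sparse VEC-positive than in sparse VEC-null cells (log2 1.10, SE 0.14, adjusted p 0.00023), and a further probe set of the gene gave 1.16. In the same order, Ndufb8 gave 1123 and 1187, 913.8 and 875.2, 1592 and 1484, and 664.3 and 538.7. Ndufb8 was thus lowest on the confluent VEC-positive arrays, with no overlap, and fell 2.45-fold there with density (log2 -1.29, SE 0.11, adjusted p 1.3e-05). Ndufc1 gave 965.1 and 806.3, 963.9 and 809.6, 1662 and 1542, and 850.4 and 627.8. Its sparse VEC-positive arrays stood above all others, the VEC-null difference with density being 0.00 (SE 0.15) and the VEC-positive one -1.08 (SE 0.15, adjusted p 0.00031). The rise of Ndufb2 with density in VEC-null cells (0.42, adjusted p 0.031) did not pass without sparse VEC-null copy 1 (0.058), sparse copy 2 (0.14) or confluent copy 1 (0.22). The further probe set of Ndufb2 gave 0.03 (adjusted p 0.87) for the same difference.

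Ndufs7 carries the iron-sulfur cluster from which ubiquinone takes its electrons. The signals were 5527 and 5212 in sparse and 3063 and 2926 in confluent VEC-null cells, and 7830 and 7520 in sparse and 2740 and 2923 in confluent VEC-positive cells. It was lower when confluent in each line, 1.78-fold in VEC-null (log2 -0.83, adjusted p 1.7e-05) and 2.68-fold in VEC-positive cells (log2 -1.42, SE 0.08, adjusted p 5.1e-07), and the responses differed by -0.59 (adjusted p 0.0034). Other core subunits, chosen for naming after their values were seen, moved less with density. Ndufv1, the NADH-binding flavoprotein, changed by -0.24 in VEC-null and -0.25 in VEC-positive cells, and the difference between responses was -0.02 (SE 0.11, adjusted p 0.93). Ndufs1, the largest iron-sulfur subunit, fell in VEC-null cells (-0.42, adjusted p 0.013), had a VEC-positive difference of 0.07 (adjusted p 0.66) and passed the test of the difference at 0.48 (adjusted p 0.048).

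Ndufa8, an accessory subunit with twin cysteine motifs, moved the other way. It gave 1262 and 1153 in sparse and 2598 and 2818 in confluent VEC-null cells, and 1413 and 1461 in sparse and 3401 and 3831 in confluent VEC-positive cells. All 4 confluent arrays stood above all 4 sparse ones. The rise was 2.19-fold in VEC-null (log2 1.13, SE 0.10, adjusted p 8.5e-06) and 2.46-fold in VEC-positive cells (log2 1.30, SE 0.10, adjusted p 3.7e-06), with a difference of responses of 0.17 (SE 0.13, adjusted p 0.39). Its higher level in confluent VEC-positive than confluent VEC-null cells (0.41, adjusted p 0.0089) did not pass without confluent VEC-null copy 1 (0.059) or confluent VEC-positive copy 2 (0.079).

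Complex II, succinate dehydrogenase, is also an enzyme of the citric acid cycle, and its 4 subunits did not move together. Sdha, the flavoprotein that oxidises succinate, gave 318.5 and 293.6 in sparse and 304.2 and 286.4 in confluent VEC-null cells, and 293.3 and 287.7 in sparse and 498.0 and 421.1 in confluent VEC-positive cells. Only the confluent VEC-positive arrays stood above the rest. Sdha rose 1.49-fold with density in VEC-positive cells (log2 0.58, SE 0.13, adjusted p 0.0055), the VEC-null difference was -0.04 (adjusted p 0.81), and the responses differed by 0.62 (SE 0.19, adjusted p 0.034). That difference did not pass when any copy other than confluent VEC-positive copy 2 was left out (adjusted p from 0.057 without confluent VEC-null copy 1 to 0.11 without confluent VEC-positive copy 1).

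Sdhb, the iron-sulfur subunit of the same enzyme, gave 1324 and 1228 in sparse and 1604 and 1504 in confluent VEC-null cells, and 2035 and 2236 in sparse and 1708 and 1625 in confluent VEC-positive cells. The sparse VEC-positive arrays were highest and the sparse VEC-null arrays lowest, and the responses differed by -0.62 (SE 0.13, adjusted p 0.0067), the same size as Sdha with the opposite sign. A chip B probe set of Sdhb gave -0.57, but its lowest mean was in confluent VEC-positive cells (810.5, against 1071 in sparse VEC-null cells). Its VEC-null density difference was -0.22 (adjusted p 0.2), against 0.28 (adjusted p 0.035) for the probe set used. The remaining members, Sdhc and Sdhd, which anchor the enzyme in the membrane, passed in no comparison.

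Complex III, which passes electrons from ubiquinol to cytochrome c, had members that moved either way. With density, 7 of its 8 members fell in VEC-positive cells and 1 rose, while in VEC-null cells 3 rose and 4 fell (over all probe sets 23.1% fell and 24.6% rose in VEC-positive cells, and 23.5% fell and 23.2% rose in VEC-null cells). The small subunits Uqcrh, Uqcr11, Uqcrq and Uqcr10 had differences of response from -2.74 to -1.31. Core protein Uqcrc1 (0.14), cytochrome c1 Cyc1 (0.19) and the small subunit Uqcrb (0.02), named after their values were seen, had none that passed.

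Uqcrh is the hinge protein that helps cytochrome c dock on cytochrome c1. It gave 456.9 and 383.4 in sparse VEC-null, 1514 and 1346 in confluent VEC-null, 1406 and 1373 in sparse VEC-positive and 646.1 and 613.3 in confluent VEC-positive cells. The order of the densities was turned around between the lines, and no pair of conditions within a line overlapped. It rose 3.15-fold with density in VEC-null cells (log2 1.66, SE 0.11, adjusted p 2.1e-06) and fell 2.12-fold in VEC-positive cells (log2 -1.08, SE 0.11, adjusted p 4.1e-05). The responses differed by -2.74 (SE 0.16, adjusted p 1.2e-05), the most negative value among the members.

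Uqcr11, the smallest subunit of the complex, was high in 1 condition. It gave 536.3 and 399.7, 528.4 and 454.6, 2238 and 2539, and 664.6 and 567.7 in sparse VEC-null, confluent VEC-null, sparse VEC-positive and confluent VEC-positive cells. The sparse VEC-positive arrays lay 4.74-fold above the sparse VEC-null ones (log2 2.24, SE 0.15, adjusted p 5.5e-06), the largest difference between lines among the members. Uqcr11 lies on chromosome 10, where all tested genes together were shifted between the lines (median 0.35 when sparse and 0.45 when confluent), and the part of that shift was not tested. It fell 3.66-fold with density in VEC-positive cells (log2 -1.87, adjusted p 6.7e-06), and the VEC-null difference was 0.07 (SE 0.15, adjusted p 0.72).

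Uqcrq, known as the ubiquinone-binding subunit, gave 3308 and 3102 in sparse and 2143 and 2569 in confluent VEC-null cells, and 4905 and 4652 in sparse and 1392 and 1285 in confluent VEC-positive cells. It was lower when confluent in both lines, more so in VEC-positive cells (3.48-fold, log2 -1.80, SE 0.10, adjusted p 6.2e-07, against log2 -0.44, adjusted p 0.0053), with a difference of -1.36 (adjusted p 0.00018). Uqcr10, another small subunit, gave 741.3 and 741.2 in sparse and 1178 and 1296 in confluent VEC-null cells, and 1592 and 1559 in sparse and 1068 and 968.8 in confluent VEC-positive cells. Like Uqcrh it rose in VEC-null cells (0.70, adjusted p 0.00025) and fell in VEC-positive cells (-0.61, adjusted p 0.0007).

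Uqcrc2, a core protein, fell with density in both lines. Its signals were 2224 and 2184 in sparse and 1605 and 1235 in confluent VEC-null cells, and 1288 and 1741 in sparse and 651.2 and 714.6 in confluent VEC-positive cells. The confluent VEC-positive arrays were lowest and the sparse VEC-null arrays highest. The fall was 2.11-fold in VEC-positive cells (log2 -1.08, SE 0.15, adjusted p 0.00033) and 1.55-fold in VEC-null cells (log2 -0.63, adjusted p 0.0078, and 0.064 without confluent VEC-null copy 2), and the difference of -0.45 did not pass (adjusted p 0.15). Uqcrc1 fell by 0.54 and 0.68 on the log2 scale in VEC-positive and VEC-null cells, and Cyc1, the haem protein that hands electrons to cytochrome c, by 0.51 and 0.69. A further tested probe set of Cyc1 gave 0.30 (adjusted p 0.34) in VEC-positive and -0.08 (adjusted p 0.81) in VEC-null cells. The probe sets of Cyc1 thus disagree. Uqcrb rose by 0.62 in VEC-positive and 0.59 in VEC-null cells.

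Cycs, the mobile electron carrier cytochrome c, gave 300.9 and 443.5 in sparse and 217.1 and 234.3 in confluent VEC-null cells, and 376.3 and 398.5 in sparse and 267.2 and 254.1 in confluent VEC-positive cells. Sparse arrays stood above confluent ones in each line. The differences were -0.59 (SE 0.17, adjusted p 0.016) in VEC-null and -0.49 (SE 0.17, adjusted p 0.036) in VEC-positive cells, and the responses differed by 0.10 (adjusted p 0.78). The VEC-null fall did not pass without sparse VEC-null copy 2 (-0.35, adjusted p 0.14) or confluent copy 1 (0.071), and the VEC-positive fall passed in none of the 4 fits that left out a VEC-positive copy (adjusted p 0.085 to 0.13).

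**Figure D4:**
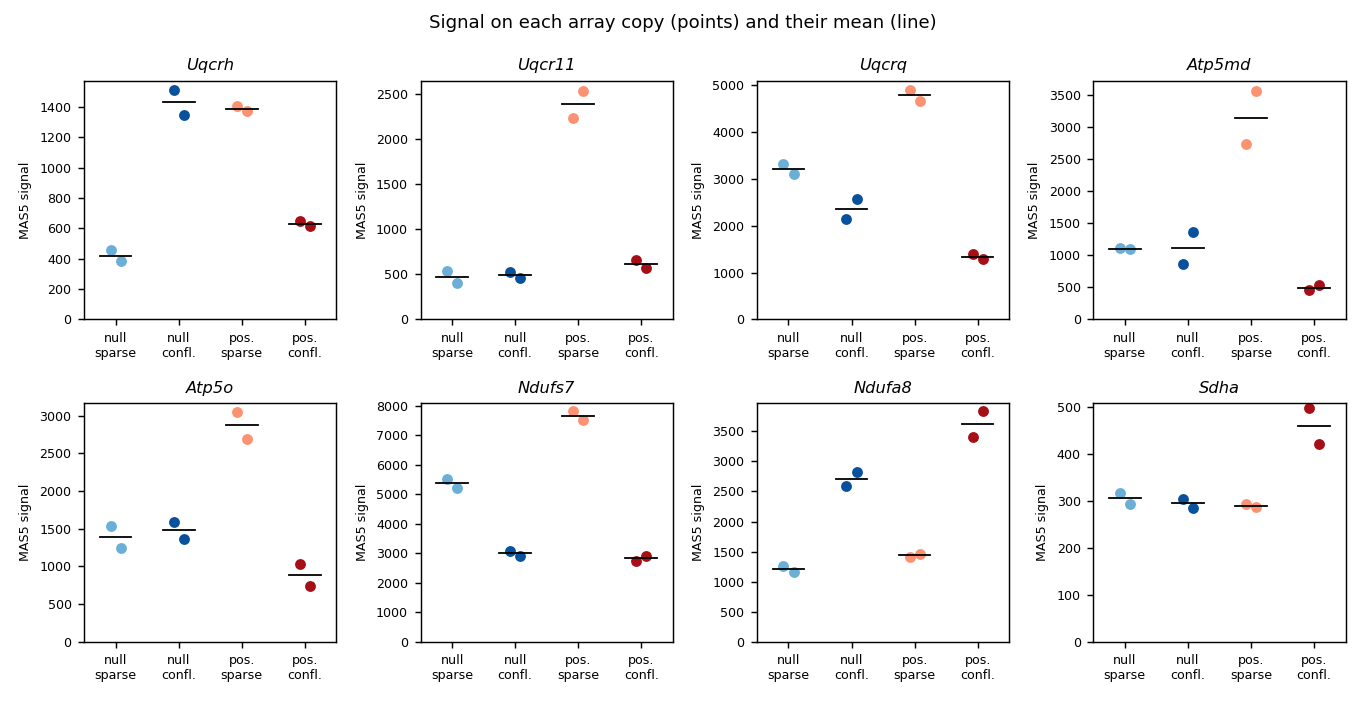
MAS5 signals on the array copies (points) and their mean (line) for 8 respiratory chain genes in the 4 conditions, each panel with its own vertical axis from 0. Uqcrh changes direction with density between the lines, Uqcr11, Atp5md and Atp5o stand out in sparse VEC-positive cells, Uqcrq and Ndufs7 fall in both lines, Ndufa8 rises in both, and Sdha is highest in confluent VEC-positive cells.

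Complex IV is cytochrome c oxidase, which reduces oxygen. Of 10 tested members, 7 fell and 2 rose with density in VEC-positive cells, 5 rose and 2 fell in VEC-null cells, and 6 had a more negative response in the VEC-positive line (median -0.53). The shares over all probe sets were 23.1% lower and 24.6% higher, 23.2% higher and 23.5% lower, and 14.1%.

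Cox7b, a structural subunit, gave 518.9 and 534.8 in sparse and 888.8 and 744.5 in confluent VEC-null cells, and 1076 and 1161 in sparse and 536.5 and 506.0 in confluent VEC-positive cells. Cox7a2l, which helps join complexes III and IV into supercomplexes, gave 1443 and 1450 in sparse and 2103 and 1769 in confluent VEC-null cells, and 2736 and 2790 in sparse and 1326 and 1381 in confluent VEC-positive cells. In each gene the sparse VEC-positive arrays were highest, and the order of sparse and confluent was opposite in the lines. Cox7b changed by 0.58 (adjusted p 0.0023) with density in VEC-null and by -1.03 (adjusted p 6.3e-05) in VEC-positive cells, a difference of -1.61 (SE 0.16, adjusted p 0.00014). Cox7a2l changed by 0.40 (adjusted p 0.0071, and 0.054 without confluent VEC-null copy 1) and by -1.00 (adjusted p 2.5e-05), a difference of -1.41 (SE 0.14, adjusted p 0.00012).

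Several subunits of this complex come in tissue forms. Cox7a2, the form found in most tissues, gave 1499 and 1438 in sparse and 2270 and 1940 in confluent VEC-null cells, and 2336 and 2568 in sparse and 1953 and 2031 in confluent VEC-positive cells, with a difference of responses of -0.79 (adjusted p 0.0027). The muscle form Cox7a1 stayed between 3.4 and 30.7 on all arrays. Cox6a1, the general form, gave 8773 and 8159 in sparse and 6755 and 6003 in confluent VEC-null cells, and 7506 and 7265 in sparse and 4330 and 4399 in confluent VEC-positive cells. It fell with density in each line, and the difference of -0.34 (adjusted p 0.046) did not pass when any copy other than confluent VEC-null copy 2 was left out (adjusted p 0.054 to 0.14). A chip B probe set of Cox6a1 gave 0.66, the opposite sign. Its muscle form Cox6a2 was not tested (32.2 to 124.0).

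Cox6b2, known as the testis form of its subunit, gave 137.0 and 116.2 in sparse and 253.0 and 262.0 in confluent VEC-null cells, and 209.4 and 207.1 in sparse and 170.4 and 181.4 in confluent VEC-positive cells. The confluent VEC-null arrays were highest, and the responses differed by -1.00 (SE 0.21, adjusted p 0.0062). The other probe sets of Cox6b2 lay below the level filter and were not tested. Their highest means were in sparse VEC-positive cells (16.5 and 157.3, against 5.25 and 66.2 in confluent VEC-null cells), so the probe sets disagree. Cox6b1, the general form, was not tested (87.5 to 257.7). Cox8b, known from muscle, gave 331.2 and 256.5 in sparse and 384.1 and 386.0 in confluent VEC-null cells, and 245.7 and 232.6 in sparse and 363.6 and 368.5 in confluent VEC-positive cells. Confluent arrays were the higher ones in both lines, and the VEC-positive rise was 0.53 (adjusted p 0.012, and 0.062 without sparse copy 2 or 0.054 without confluent copy 2 of that line). Muscle markers summed to between 1083 and 1223 in confluent VEC-positive and between 1444 and 1680 in the other conditions.

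Cox4i1 encodes the regulatory subunit that binds ATP. It gave 159.2 and 161.6 in sparse and 185.9 and 150.3 in confluent VEC-null cells, and 262.0 and 233.1 in sparse and 132.8 and 159.8 in confluent VEC-positive cells. Only the sparse VEC-positive arrays stood apart. The gene was 1.41-fold higher there than in sparse VEC-null cells (log2 0.50, SE 0.16, adjusted p 0.034), which passed in none of the 4 fits without a sparse copy (adjusted p 0.07 to 0.15), and its chip B probe set gave 0.13 (adjusted p 0.54). A further chip A probe set gave density differences of 0.68 (adjusted p 0.011) in VEC-null and 0.42 (adjusted p 0.081) in VEC-positive cells, so the probe sets of Cox4i1 disagree.

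Complex V, the ATP synthase, pairs a catalytic head with a membrane rotor and a stalk. Of 12 tested members, 8 were higher and 1 lower in sparse VEC-positive than in sparse VEC-null cells (median 0.71), where 18.3% and 20.6% of all probe sets were. With density 7 fell and 1 rose in VEC-positive cells, while in VEC-null cells 3 rose and 3 fell, the shares over all probe sets being 23.1% and 24.6%, and 23.2% and 23.5%. The responses differed for 7, all more negative in VEC-positive cells (14.1% of all), with a median over the 12 of -0.98.

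Atp5md is a small membrane subunit that helps ATP synthase form dimers. It gave 1119 and 1093 in sparse and 863.9 and 1359 in confluent VEC-null cells, and 2730 and 3565 in sparse and 452.5 and 531.3 in confluent VEC-positive cells. Arrays of the VEC-null line overlapped between densities and lay between the VEC-positive pairs. It fell 5.87-fold with density in VEC-positive cells (log2 -2.55, SE 0.19, adjusted p 4.7e-06), the largest fall of any member, and the VEC-null difference was -0.03 (SE 0.19, adjusted p 0.92). Its probe set carries a suffix that marks probes shared with similar sequences, so related transcripts may add to the signal.

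Atp5o, the OSCP subunit of the stalk, gave 1543 and 1248 in sparse and 1595 and 1368 in confluent VEC-null cells, and 3048 and 2696 in sparse and 1029 and 742.7 in confluent VEC-positive cells. Atp5e, the epsilon subunit at the foot of the head, gave 319.6 and 275.8 in sparse and 254.7 and 281.5 in confluent VEC-null cells, and 520.1 and 571.5 in sparse and 157.6 and 146.0 in confluent VEC-positive cells. In both genes the VEC-null arrays overlapped between densities and the VEC-positive pairs stood above and below them. With density in VEC-positive cells Atp5o fell 3.15-fold (log2 -1.66, SE 0.16, adjusted p 2.3e-05) and Atp5e 2.95-fold (log2 -1.56, SE 0.14, adjusted p 1.3e-05). The lower level of Atp5o in confluent VEC-positive than confluent VEC-null cells (-0.72, adjusted p 0.0068) did not pass without confluent VEC-null copy 1 (0.052) or confluent VEC-positive copy 2 (0.053).

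Atp5l, subunit g of the membrane part, gave 1686 and 1430 in sparse and 3186 and 3052 in confluent VEC-null cells, and 3336 and 3529 in sparse and 1936 and 2224 in confluent VEC-positive cells. The densities stood in opposite order in the lines without overlap. It rose 1.98-fold in VEC-null cells (log2 0.98, SE 0.10, adjusted p 4e-05) and fell 1.64-fold in VEC-positive cells (log2 -0.71, SE 0.10, adjusted p 0.00038). The rotor ring is built from subunit c, encoded by several genes. Atp5g1 gave 100.4 and 119.0 in sparse and 107.5 and 139.5 in confluent VEC-null cells, and 93.3 and 101.0 in sparse and 167.3 and 160.8 in confluent VEC-positive cells. Only its confluent VEC-positive mean (164.1) lay above the chip A level of 159. Atp5g1 was thus tested only through the condition in which it was called higher. Atp5g2 gave 1093 and 1119 in sparse and 652.1 and 901.9 in confluent VEC-null cells, and 846.0 and 776.2 in sparse and 666.5 and 711.4 in confluent VEC-positive cells. Neither subunit c gene showed the high sparse VEC-positive level of Atp5l, and their differences of response, 0.43 (SE 0.25, adjusted p 0.23) and 0.28 (SE 0.20, adjusted p 0.33), did not pass. The VEC-positive rise of Atp5g1 (adjusted p 0.028) passed in none of the fits without a VEC-positive copy (0.07 to 0.11). The lower level of Atp5g2 in sparse VEC-positive cells (-0.43, adjusted p 0.037) did not pass in 6 of the 8 fits that left out a copy (0.051 to 0.15), passing only without a confluent VEC-null copy.

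Other genes of mitochondria are given beside the same shares over all probe sets: with density 23.1% fell and 24.6% rose in VEC-positive cells and 23.5% fell and 23.2% rose in VEC-null cells, and the responses differed for 14.1% downward and 14.6% upward. Of 67 tested mitochondrial ribosomal proteins, 36 fell and 1 rose with density in VEC-positive cells (median -0.43), 22 fell and 5 rose in VEC-null cells (median -0.21), and the responses differed for 19 downward and 4 upward (median -0.24). In sparse cells 11 of these 67 were higher in the VEC-positive line and 15 lower, near the 18.3% and 20.6% of all probe sets. Mrps21 (-1.43), Mrpl20 (-1.23) and Mrpl21 (-1.13) had their most negative differences of response.

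Of 32 tested import and chaperone genes, 19 fell in VEC-positive and 15 in VEC-null cells, and the responses differed for 4 downward and 5 upward (median 0.09), close to the share over all. The import proteins Timm8b (-1.70), Timm17a (-1.28) and Timm10b (-1.13) were the largest of the 4. Among 31 assembly factors of the chain the responses differed for 7 downward and 3 upward (median -0.07), with the complex IV factors Cox19 (-1.49), Coa3 (-1.28) and Cox17 (-1.04) lowest.

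Of 16 genes of pyruvate dehydrogenase and the citric acid cycle, 11 fell in VEC-null cells (median -0.63) and 6 in VEC-positive cells (median -0.22). The responses differed for 6 upward, the largest being Idh2 (1.10), the mitochondrial NADP-dependent isocitrate dehydrogenase, and 1 downward. Of 17 genes of coenzyme Q synthesis and other electron entry, 9 fell in VEC-null and 8 in VEC-positive cells, and the responses differed for 1 in each direction. In VEC-null cells 1 rose, Etfb (0.40, adjusted p 0.014), a subunit of the electron transfer flavoprotein, named after its value was seen. The list of carriers and porins also held the ATP synthase inhibitor Atpif1 and Aifm1. All 6 tested genes of that list had negative density differences in each line, 5 called in VEC-null and 4 in VEC-positive cells. Of 14 regulators of mitochondrial biogenesis, 7 had a more positive response in VEC-positive cells and 7 did not pass (median 0.46), the largest being Gabpa (1.30), which encodes the ETS subunit of GABP.

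Families outside mitochondria were added for description after the data were seen. Of all tested probe sets, 22.6% were highest in sparse and 27.4% lowest in confluent VEC-positive cells. Of 24 tested cytosolic ribosomal protein genes, 17 (70.8%) were highest and 18 (75%) lowest there, and 19 had a more negative response in VEC-positive cells (median -0.86; 14.1% of all). Of 34 proteasome subunit genes, 22 (64.7%) were highest and 22 (64.7%) lowest there. Among these, 13 had a more negative response and 1 a more positive one (median -0.37; 14.1% and 14.6% of all). In VEC-null cells 18 proteasome genes fell and 5 rose with density (median -0.39), and 7 cytosolic ribosomal protein genes fell and 4 rose (median -0.08), where 23.5% of all fell and 23.2% rose. High signals in sparse VEC-positive cells were thus also found outside the respiratory chain, and no test compared the families.

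Values of the arrays themselves differed between conditions as well. On chip A the median signal of all probe sets was 144.7 and 140.7 in sparse VEC-positive cells, against 151.3 to 175.1 in the other conditions. On chip B the order was opposite, with 246.3 and 251.4 in sparse VEC-positive cells against 224.0 to 234.4. The ratio of 3' to 5' actin probe sets, a sign of RNA or cRNA length, was 1.33 and 1.26 on the confluent VEC-positive chip A arrays and 1.11 to 1.25 on the other chip A arrays, where the Gapdh ratio lay between 0.903 and 1.01. On chip B, which holds 5 of the members, the Gapdh ratio was 1.23 and 1.14 on the confluent VEC-positive arrays and 0.91 to 1 on the others. The part of these in the results was not tested. With arrays centred on their median, the members' median difference of responses was -0.59.

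Position and probe design were also set beside the members. Line differences were shifted on chromosomes 5, 8, 10 and 14, which hold 7 tested members, Atp5d, Uqcr11 and Cox4i1 among them. The part of that shift in their line differences was not tested. The 58 other tested members had a median difference of responses of -0.50, with 31 more negative and 2 more positive. The 48 tested members on probe sets without a cross-hybridisation suffix had a median of -0.53 and the 17 with one -0.62. The 32 brighter members had a median of -0.53 and the 33 dimmer ones -0.64. A further 11 probe sets of members were tested, and 7 had the same sign of the difference of responses as the probe set used. Atp5c1, the gamma subunit, gave -0.99 and -0.18 from its pair, so sizes for single genes depend on the probe set.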

How the data were processed

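Signals of 16 arrays were read from the deposited tables. They hold linear intensities, the MAS5 signals that the authors scaled to 500 on every array, per the labels (MAS5 is also named in the submitters' processing notes, with no version). The tables carry no detection calls, and the gene-wise median normalisation named in the series text was not seen in them. Arrays have no read depth: the 2 copies of 1 cRNA sample limit the precision.

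Symbols were taken from GEO's platform annotation and checked through Entrez identifiers against RefSeq (GRCm38.p6), where 21367 of 21414 probe sets with a single symbol matched and 0 symbols changed. Another 13 probe sets that name a member together with another gene were not used. A gene with several probe sets was represented on chip A before chip B, then by the highest mean signal.

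Log2(signal + 50) was fitted per chip over 4 group means with limma 3.58.1 in R 4.3.3 (eBayes with a trend, 4 residual degrees of freedom, prior 5.66 and 5.6). Probe sets with at least 1 group mean above the 50th percentile of their chip (signals 159 and 235, on the mean log2 scale) were kept, 14246 in all, and p-values were adjusted over these by the Benjamini-Hochberg method. The fit was tested on simulated data. Folds are on the scale of the signal plus 50 and understate changes of dim genes. Genes were named where they passed an adjusted p of 0.05 with a log2 difference of 1, where they were among the 3 largest of a complex, or where they belong to isoform pairs; genes of other lists by the same thresholds, at most the 3 largest a list. The members and lists were chosen with earlier results of these data known. Other normalisations, offsets, filters, probe set choices, fits and copies left out were tried.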

Additional observations from a re-analysis of the deposited data

Results flagged for a closer look

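For 38 members the density response differed between the lines by limma's test of that difference, at an adjusted p below 0.05 over all tested probe sets. Of the 65 tested members, 36 (55.4%) were more negative in the VEC-positive line, where 14.1% of all probe sets were. Another 2 (3.08%) were more positive, where 14.6% of all were. The calls of Sdha, Ndufs1 and Cox6a1 were lost with some copies left out, as given above. Values are the VEC-positive minus the VEC-null response on the log2 scale. Among complex I accessory subunits these were Ndufa7 (-1.63), Ndufv3 (-1.45), Ndufb6 (-1.19), Ndufb2 (-1.09), Ndufc1 (-1.08), Ndufab1 (-1.02), Ndufa2 (-1.01), Ndufb8 (-0.94), Ndufb5 (-0.89), Ndufa3 (-0.84), Ndufa6 (-0.78), Ndufb10 (-0.75), Ndufa13 (-0.64), Ndufb7 (-0.54) and Ndufb11 (-0.45). The core subunits were Ndufv2 (-0.70) and Ndufs7 (-0.59), with Ndufs1 (0.48) in the other direction, and 1 assembly factor was Ndufaf8 (-0.52). In complex II, Sdhb (-0.62) and Sdha (0.62) differed in opposite directions. Complex III gave Uqcrh (-2.74), Uqcr11 (-1.95), Uqcrq (-1.36) and Uqcr10 (-1.31). Complex IV gave Cox7b (-1.61), Cox7a2l (-1.41), Cox6b2 (-1.00), Cox7a2 (-0.79), Cox5b (-0.41) and Cox6a1 (-0.34). A chip B probe set of Cox6a1 had the opposite sign (0.66) and did not pass. Complex V gave Atp5md (-2.53), Atp5o (-1.74), Atp5mpl (-1.70), Atp5l (-1.69), Atp5e (-1.43), Atp5c1 (-0.99) and Atp5j (-0.96). The spread behind these tests is that between 2 hybridisations of 1 cRNA sample per condition. No group had 4 or more arrays on a chip, so single arrays were not tested for standing apart.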

How the results depend on the processing

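Counts in this section are of members alone. The shares of all tested probe sets under each setting are not given, only those of the main fit above. The counts thus show how calls depend on the setting and not an excess over all probe sets. Copies left out gave these ranges for the members. Confluent VEC-positive against VEC-null cells gave 2 to 4 higher, 19 to 24 lower, 2 to 3 past both thresholds and a median of -0.25 to -0.17. Sparse cells gave 27 to 34 higher, 3 to 5 lower, 8 to 10 past both and 0.32 to 0.37. Density in VEC-positive cells gave 4 to 6 higher, 36 to 43 lower, 12 to 15 past both and -0.53 to -0.49. Density in VEC-null cells gave 12 to 18 higher, 9 to 17 lower, 3 to 4 past both and 0.05 to 0.11. The difference of responses gave 0 to 1 higher, 30 to 34 lower, 16 to 19 past both and -0.63 to -0.52.

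Quantile normalisation gave 4 past both thresholds in confluent cells and a VEC-null density median of 0.05. Median centring gave medians of 0.42 (sparse), -0.73 (density, VEC-positive), -0.07 (density, VEC-null, reversed) and -0.59 (difference of responses), with 11 higher calls for density in VEC-null cells and 0 for the difference. An offset of 200 gave medians of -0.18, 0.31, -0.46 and -0.44 for confluent cells, sparse cells, density in VEC-positive cells and the difference, and 0, 4 and 8 past both thresholds in the first 3. In the same order, no filter gave -0.15, 0.26, -0.45 and -0.42. The 75th percentile filter gave 0.43, -0.60 and -0.61 for the last 3, and 3 higher calls for density in VEC-positive cells. Higher calls for the difference were 0 with no filter (2 at an unadjusted p below 0.05, as with median centring) and 1 with the 75th percentile filter, without the variance trend and with the replicate block. The cause of these shifts was not tested. Copy numbers did not pair the arrays (r -0.0888 to 0.0773), and the replicate block changed 1 of 102 gene calls, Cox6b2 in confluent cells (adjusted p 0.059).

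A fit of 4 averaged cRNA samples with additive line and density terms has 1 residual degree of freedom, which is the difference of responses itself. It called 0 members higher, 0 lower and 0 past both thresholds between lines, at either density (2 higher and 1 lower at an unadjusted p below 0.05; median 0.07, reversed in confluent cells). For density it called 1 higher and 1 lower, 2 past both in VEC-positive cells, with a median of -0.21, reversed in VEC-null cells. Its common line difference reversed the confluent values of Ndufa7 (0.23), Uqcrh (0.25), Cox7a2l (0.21), Cox7b (0.21), Atp5e (0.06), Atp5l (0.27), Atp5md (0.19), Atp5o (0.15) and Cox6b2 (0.05) and the sparse values of Ndufb8 (-0.07) and Uqcrq (-0.11). Its common density difference reversed the VEC-positive values of Uqcr10 (0.05), Uqcrh (0.29), Atp5l (0.14) and Cox7a2 (0.10) and the VEC-null values of Ndufa7 (-0.17), Ndufb2 (-0.12), Cox7a2l (-0.30), Cox7b (-0.22) and Sdhb (-0.04). Without the members on chromosomes 5, 8, 10 and 14 the medians were 0.31 between the lines in sparse cells, -0.50 for density in VEC-positive cells and -0.50 for the difference. No other alternative reversed a gene value. Of 1066 such values 962 kept direction and call and 84 lost the call. Of 816 with a copy left out, 734 and 82 did. The 1066 include settings that reused the main fit: chromosomes left out (89 of 89 the same) and highest signal on either chip (101 of 102). There a gene whose probe set stayed the same could not change, so its agreement is no check. Signal over background limits the 13 dim members.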
